A study of Mus musculus with 15 samples.

Results

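Transcript levels of 10 genes of the NRF antioxidant response were followed in mouse mammary tumors and glands: the transcription factor genes Nfe2l2 (encoding NRF2) and Nfe2l3 (encoding NRF3), the inhibitor gene Keap1, and the target genes Nqo1, Hmox1, Gclc, Gclm, Slc7a11, Txnrd1 and Srxn1. The genes were chosen by symbol, and each of the 10 was found once among the 51826 genes of the RNA-seq tables. Of the 10, only Nfe2l3 passed the test in any of the 7 comparisons made between groups: it was nearly absent from metaplastic carcinosarcomas and well expressed in carcinomas. It passed in carcinosarcomas against glands, where 23% of all genes tested were called, and against carcinomas, where 0.698% were. The call against carcinomas held in 3 of 6 fits with 1 mouse left out and under 3 of 5 other settings. In most of the fits where it was lost, no gene at all was called. The widest spread of most other members lay within the control glands.

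The study placed Flag-tagged mouse Trim24, encoding a histone reader, behind a floxed stop cassette (Trim24 LSL, 1 founder line) and removed that stop with MMTV-Cre, which acts in mammary epithelium. From the resulting Trim24COE females come 3 metaplastic carcinosarcomas, of mice 64, 567 and 897, and, from mice 89, 273_5 and 3956, 3 carcinomas. The 4 control mammary glands (mice 133, 392, 417_3 and 517_3) came from un-diseased, age-matched MMTV-Cre females, so that controls and Trim24COE tumors share the Cre transgene, and the 3 non-TRIM24 tumors (219, FVB001 and FVB002) arose spontaneously in mice described as not overexpressing TRIM24, with a genotype labelled unknown. The class of each tumor is that of the labels, and the study's pathologists differed on tumors 89, 567 and 3956. The study also lists calls based on RNA-seq, carcinosarcoma for 64, 567 and 897 and carcinoma for 89 and 273_5. Whether the labels follow these calls is not known, so the classes may rest partly on the same expression data. The labels give the strain as FVB, while the study describes the non-TRIM24 tumors as coming from mice of an FVB or a mixed FVB background. The labels give no ages, and those the study gives for single tumor mice were not used here. Every library comes from whole tissue of 1 mouse. The non-TRIM24 tumors were all sequenced in batch 2, together with a repeat library each of gland 133 and carcinoma 3956, and all other libraries are of batch 1.

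Values are TPM (transcripts per 1000000 transcripts), a share of each library that accounts for transcript length. Because of this scaling the depth of the libraries is unknown. Between 21060 and 34209 genes per library were above 0. By TPM, Trim24 itself did not separate Trim24COE tumors from control glands. It was at 10.6 to 24.1 TPM in the 6 tumors labelled Trim24COE and 14.5 to 22.4 TPM in the 4 control glands. Non-TRIM24 tumors 219, FVB001 and FVB002, all of batch 2, were lower, at 5.34, 9.34 and 10.04 TPM. The batch 2 repeats had 11.1 TPM for gland 133 and 11.49 TPM for carcinoma 3956, against 14.54 and 16.45 TPM in their first libraries. The study itself reports more Trim24 transcript in Trim24COE tumors than in Cre-only glands by qRT-PCR. It also reports FLAG and TRIM24 protein overexpressed in these tumors by immunohistochemistry. How much of the Trim24 signal comes from the transgene cannot be told from TPM. The summed TPM of 8 adipocyte markers was 25493 in gland 133 and 38048 in gland 392, but 1763 in gland 417_3 and 1953 in gland 517_3. For 8 epithelial markers the order was the opposite, with sums of 804 and 1394 in glands 133 and 392 and of 5905 and 6273 in glands 417_3 and 517_3. Adipocyte sums were 172 to 231 in carcinosarcomas and 121 to 1276 in carcinomas, and in non-TRIM24 tumors 179 in tumor 219, 54243 in FVB001 and 27602 in FVB002. Epithelial sums were 365 to 1424 in carcinosarcomas and 2417 to 5884 in carcinomas, and in non-TRIM24 tumors 5789 in tumor 219, 552 in FVB001 and 3213 in FVB002. Macrophage markers (8 genes) summed to 624 to 931 in glands, 2412 to 5352 in carcinosarcomas and 1363 to 5426 in carcinomas. No adipocyte, epithelial or macrophage marker was at 0 in every mouse of a group. In whole tissue, fewer cells of a type and less RNA per cell cannot be told apart.

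NRF2 and NRF3 are related basic leucine zipper factors that pair with small MAF proteins and bind antioxidant response elements. In unstressed cells KEAP1 binds NRF2 and hands it to a CUL3 ubiquitin ligase, and oxidants or electrophiles that modify KEAP1 let NRF2 accumulate. NRF2 activity is therefore set largely at the protein level, and its target genes are commonly read as its output. NRF3 is less studied, sits in the endoplasmic reticulum membrane and is released by proteolysis.

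To show where the factors' recognition sequence is present near the members' start sites, RefSeq promoter windows (GRCm38.p6, 250 bases before to 50 after the start) were searched on both strands for the core of the antioxidant response element, TGACNNNGC. Windows were given for 8 of the 10 members, and the core was found in 4 of them, against 12.4% of 32851 windows of all genes and 14% of 27025 genes with it in at least 1 window. The stretches below run 5′ to 3′ on the strand of the gene, with the core in capitals.
Nfe2l2, chr2:75704885-75704913, minus strand, core on the gene's strand: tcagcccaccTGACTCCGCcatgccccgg
Gclm, chr3:122245413-122245441, plus strand, core on the opposite strand: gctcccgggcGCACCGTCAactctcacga
Txnrd1, chr10:82859104-82859132, plus strand, core on the opposite strand: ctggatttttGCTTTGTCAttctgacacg
Srxn1, chr2:152105542-152105570, plus strand, core on the opposite strand: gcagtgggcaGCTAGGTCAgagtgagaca
Counted from the start, the first base of the core lay at -240 in Nfe2l2, at -134 in Gclm, at -92 in 1 of 3 windows of Txnrd1 and at 29 in Srxn1. These letters were not in the windows of Nfe2l3, Keap1, Nqo1 and Slc7a11, and a match or its lack says nothing about binding in these tissues.

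Nfe2l3 (chr6:51432670-51458768, GRCm38, plus strand) was the member that differed between tumor classes. Its level was 0.32, 1.25 and 0.83 TPM in carcinosarcomas 64, 567 and 897. In carcinomas 89, 273_5 and 3956 it was 18.1, 15.1 and 21 TPM. Every carcinosarcoma thus lay far below every carcinoma. Control glands 133, 392, 417_3 and 517_3 had 8.52, 6.24, 42.9 and 37.5 TPM of Nfe2l3, and non-TRIM24 tumors 219, FVB001 and FVB002 had 13.6, 1.88 and 8.76 TPM. Ordered by mean, Nfe2l3 was highest in glands (23.8 ± 19.1 TPM, SD, n = 4), then carcinomas (18.1 ± 2.95, n = 3), non-TRIM24 tumors (8.08 ± 5.89, n = 3) and carcinosarcomas (0.800 ± 0.466, n = 3), and only the carcinosarcomas did not overlap with any other group. Carcinomas and non-TRIM24 tumors did not overlap either, but their difference of 1.16 did not pass the test (limma, adjusted p = 0.393).

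On the scale of log2(TPM + 1), Nfe2l3 was lower in carcinosarcomas than in carcinomas by a difference of -3.43 (SE 0.31, 95% interval -4.17 to -2.68, limma, adjusted p = 0.0123), a comparison in which 0.585% of 14193 genes were called lower and 0.698% in either direction. Against control glands the difference in carcinosarcomas was -3.39 (SE 0.68, interval -4.96 to -1.83, adjusted p = 0.0116), where 13.1% of 15287 genes were called lower and 23% in either direction. With 3 against 3 and 3 against 4 mice, exact two-sided permutation tests gave p = 0.10 and p = 0.0571, the smallest that these numbers of mice allow. Without carcinosarcoma 64 neither difference passed the threshold (adjusted p = 0.106 against carcinomas and 0.0598 against glands), and that against carcinomas was also lost without carcinosarcoma 897 (0.0600) or carcinoma 89 (0.0697), while its size stayed between -3.60 and -3.22. The call against carcinomas was also lost with no filter on low values (adjusted p = 0.0790) and with the adipocyte covariate (0.161). In both of these fits, and without carcinosarcoma 64 or carcinoma 89, no gene at all was called between the tumor classes. Without carcinosarcoma 897, 0.0934% of genes were called. In carcinomas Nfe2l3 differed from glands by 0.03 (interval -1.52 to 1.58, adjusted p = 0.985), and in all 6 Trim24COE tumors by -1.68 (interval -3.76 to 0.40, adjusted p = 0.245), with the 3 carcinosarcomas below every gland and the 3 carcinomas inside the range of the glands.

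Epithelial marker sums were 365, 509 and 1424 in carcinosarcomas 64, 567 and 897, beside 804, 1394, 5905 and 6273 in the glands and 2417 to 5884 in carcinomas. Non-TRIM24 tumors 219, FVB001 and FVB002 had 5789, 552 and 3213. The part of these sums in the result was not tested. Expressed per Nfe2l2, Nfe2l3 was 0.488% to 1.34% of the Nfe2l2 TPM in carcinosarcomas, 16.4% to 19.4% in carcinomas, 14.3% to 25.8% in glands and 6.50% to 28.2% in non-TRIM24 tumors. The 3 genes whose pattern over the 10 mice of batch 1 was most like that of Nfe2l3 among 16050 genes were Map7, Patj and Marveld2, with root-mean-square differences of centered log2(TPM + 1) of 0.31, 0.32 and 0.35. Map7, for example, was at 0.15 to 0.73 TPM in carcinosarcomas and at 11.8 to 16.3 TPM in carcinomas.

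**Figure D1:**
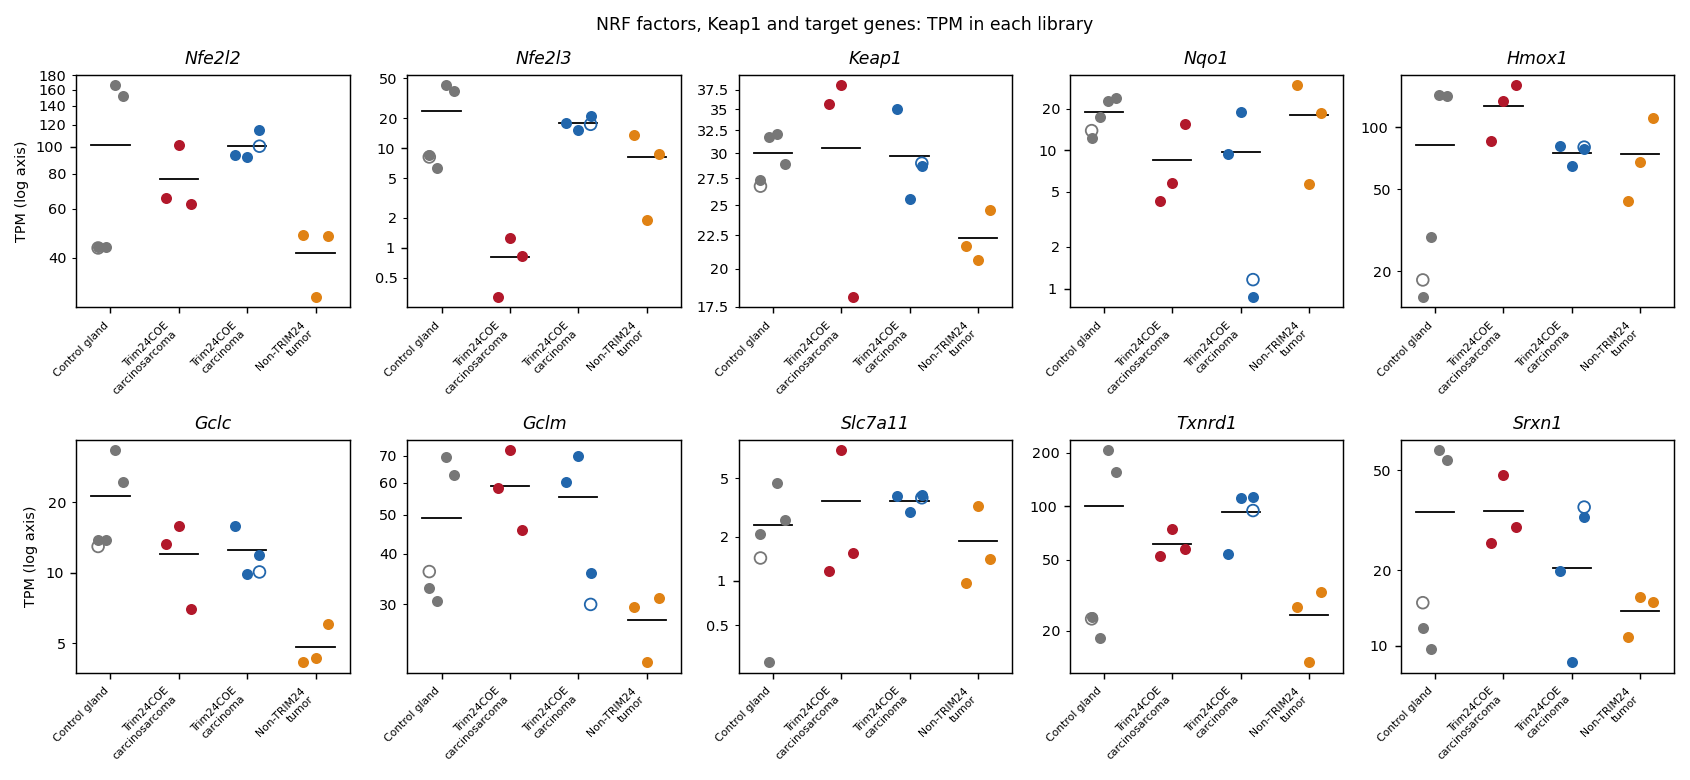
TPM of each member on a log axis, with 1 filled point per mouse, open circles for the repeat libraries of gland 133 and carcinoma 3956, and a line at the mean of each group's mice. Nfe2l3 lies at 0.32 to 1.25 TPM in carcinosarcomas and at 15.1 to 21 TPM in carcinomas, and several members fall into a high and a low pair among the 4 glands.

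Nfe2l2 (chr2:75675513-75704641, minus strand), the gene of the master regulator, was expressed in every library. Glands 133 and 392 had 43.7 and 43.5 TPM and glands 417_3 and 517_3 had 166 and 152 TPM. Carcinosarcomas had 65.5, 101.7 and 62.2 TPM and carcinomas 93.2, 92.0 and 115 TPM, so that all 6 Trim24COE tumors lay between the low and the high pair of glands. Trim24COE tumors differed from glands by 0.05 on the log2 scale (interval -0.86 to 0.95, limma, adjusted p = 0.956). Carcinosarcomas alone differed from glands by -0.16 (interval -1.42 to 1.10, adjusted p = 0.859).

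Keap1 (chr9:21229730-21239361, minus strand) varied least of the 10, with an SD of 0.30 on the log2 scale over the 10 mice of batch 1. Its mean was 30.0 ± 2.31 TPM in glands (SD, n = 4), 30.6 ± 10.9 in carcinosarcomas, 29.7 ± 4.82 in carcinomas and 22.3 ± 2.03 in non-TRIM24 tumors (n = 3 each). Carcinosarcoma 897 had the lowest Keap1 level of all mice, 18.1 TPM. The difference between Trim24COE tumors and glands was -0.03 (interval -0.54 to 0.48, adjusted p = 0.950).

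Nqo1 (chr8:107388225-107403206, minus strand) encodes a quinone reductase that is widely used as a readout of NRF2. It was at 12.2, 17.4, 22.7 and 23.8 TPM in glands 133, 392, 417_3 and 517_3, at 4.28, 5.81 and 15.6 TPM in carcinosarcomas 64, 567 and 897, and at 9.40, 19.0 and 0.87 TPM in carcinomas 89, 273_5 and 3956. In 4 of the 6 Trim24COE tumors Nqo1 was thus below every gland, while carcinosarcoma 897 and carcinoma 273_5 lay within the range of the glands. The low value of carcinoma 3956 was found again in its repeat library (1.16 TPM). In the same tumor Nfe2l2 (115 TPM), Txnrd1 (113 TPM) and Srxn1 (32.7 TPM) were the highest of the 3 carcinomas. The difference between Trim24COE tumors and glands was -1.31 (SE 0.58, interval -2.59 to -0.03, limma, adjusted p = 0.145). In carcinosarcomas it was -1.21 (interval -2.22 to -0.19, adjusted p = 0.0832). With 1 mouse left out, that difference passed in 1 of 7 fits (limma, adjusted p = 0.0294, without carcinosarcoma 897, and up to 0.284 in the others). It passed under 0 of 5 other settings (0.0525 to 0.253). In carcinomas the difference from glands was -1.41 (interval -3.11 to 0.29, adjusted p = 0.323, and a difference of -0.43 without carcinoma 3956). Among non-TRIM24 tumors Nqo1 ranged from 5.68 TPM in FVB001 to 29.5 TPM in tumor 219. The genes with the pattern most like Nqo1 were Gm15867, 4930523C07Rik and Tmem147os, at root-mean-square differences of 0.44, 0.46 and 0.47.

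Hmox1 (chr8:75093621-75100589, plus strand) encodes heme oxygenase 1, which breaks down heme and is also abundant in macrophages. Carcinosarcomas 64, 567 and 897 had 85.9, 134 and 160.3 TPM and carcinomas 89, 273_5 and 3956 had 80.9, 65.0 and 78.3 TPM. Each carcinosarcoma was above each carcinoma, with a difference of 0.71 (interval 0.03 to 1.39) that did not pass the adjustment (limma, adjusted p = 0.318, exact permutation p = 0.10). Macrophage marker sums were 2412, 5352 and 3669 in these carcinosarcomas and 1689, 1363 and 5426 in these carcinomas, and their part in the result was not tested. Control glands spanned 15, 29.4, 144 and 142 TPM, nearly the range of the whole series, and Trim24COE tumors differed from them by 0.78 (interval -0.53 to 2.08, adjusted p = 0.392). That difference was 0.17 without gland 133, 0.48 without gland 392, 1.23 without gland 417_3 or 517_3 and -0.67 with the adipocyte marker sum as a covariate.

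Glutathione synthesis is represented by the catalytic subunit Gclc (chr9:77754535-77794485, plus strand) and the modifier subunit Gclm (chr3:122245557-122270732, plus strand) of glutamate-cysteine ligase, and by Slc7a11 (chr3:49892526-50443614, minus strand), the cystine transporter. Gclc was at 13.9, 13.8, 33.4 and 24.6 TPM in the glands, at 13.2, 15.8 and 7.04 TPM in carcinosarcomas and at 15.8, 9.85 and 12 TPM in carcinomas. The difference between Trim24COE tumors and glands, -0.71 (SE 0.32, interval -1.41 to -0.0041), did not pass the adjustment (limma, adjusted p = 0.151), and 4 of the 6 tumors lay below every gland. In carcinosarcomas it was -0.75 (interval -1.70 to 0.19, adjusted p = 0.219). Gclm did not follow Gclc: it was at 32.8, 30.5, 69.5 and 62.8 TPM in the glands, at 58.3, 72.1 and 45.9 TPM in carcinosarcomas and at 60.2, 70.0 and 35.8 TPM in carcinomas. Slc7a11 was the least abundant target, between 0.28 TPM in gland 392 and 7.70 TPM in carcinosarcoma 567.

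The 2 subunits therefore differed in their ratio. Gclc divided by Gclm was 0.423, 0.454, 0.480 and 0.391 in glands 133, 392, 417_3 and 517_3. It was 0.153 to 0.227 in carcinosarcomas, 0.141 to 0.334 in carcinomas and 0.141 to 0.200 in non-TRIM24 tumors, so that all 9 tumors lay below all 4 glands. Both gland pairs, fat-rich and fat-poor by their markers, had this higher ratio. The repeat libraries gave 0.359 for gland 133 and 0.337 for carcinoma 3956, which brings these samples close to each other. This ratio was chosen after its values were seen and carries no test. Of the 45 pairs of members, 1 pair (2.22%) had a ratio that did not overlap between the 6 Trim24COE tumors and the 4 glands, against 17.5% of all pairs of the 14533 genes with at least 1 TPM in 4 of these 10 mice and above 0 in all 13, so that a ratio of this kind was not particular to these subunits. Over all 9 tumors and the 4 glands the share of all pairs was 7.32%.

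**Figure D2:**
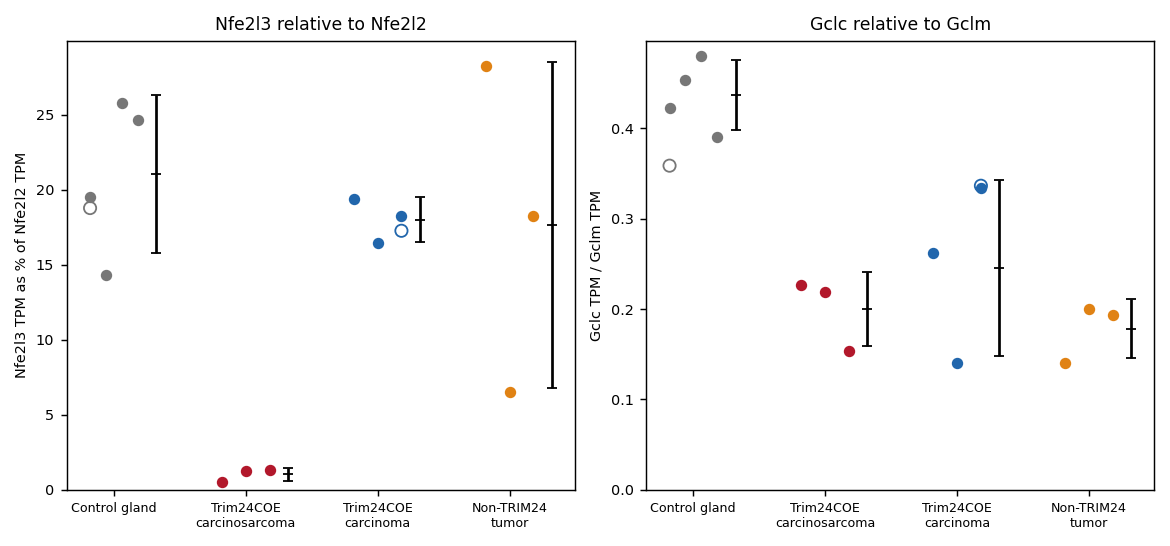
Nfe2l3 as a percent of Nfe2l2 TPM (left) and Gclc TPM divided by Gclm TPM (right), with 1 filled point per mouse, open circles for repeat libraries, and the mean with SD beside each group. The 3 carcinosarcomas lie at 0.488% to 1.34% in the left panel, and the 4 glands lie at 0.391 to 0.480 in the right panel, above the 9 tumors at 0.141 to 0.334.

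Txnrd1 (chr10:82833951-82897712, plus strand), cytosolic thioredoxin reductase, and Srxn1 (chr2:152105516-152111376, plus strand), sulfiredoxin, which repairs overoxidized peroxiredoxins, were both split among the glands. Txnrd1 was at 24.0 and 18.3 TPM in glands 133 and 392 and at 205 and 155 TPM in glands 417_3 and 517_3. Carcinosarcomas had 52.4, 74.5 and 57.3 TPM and carcinomas 53.8, 110.5 and 113 TPM, all between these pairs. Carcinosarcomas differed from glands by -0.03 (interval -1.97 to 1.92, limma, adjusted p = 0.986). Srxn1 ranged from 9.73 to 59.9 TPM in glands, from 25.7 to 48 TPM in carcinosarcomas and from 8.61 to 32.7 TPM in carcinomas. The genes with the pattern most like Txnrd1 over the 10 mice of batch 1 were Ddx21, Abtb2 and Slc7a1, at root-mean-square differences of 0.30, 0.34 and 0.34.

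Within the control glands, 9 of the 10 members were higher in both fat-poor glands (417_3 and 517_3) than in both fat-rich ones (133 and 392), Keap1 being the exception. The same order held for 49.3% of the 15876 genes with at least 1 TPM in 2 of the 4 glands. The sizes differed: the median difference was 1.51 on the log2 scale for the members and 0.30 for these genes. The ratio of the mean of glands 417_3 and 517_3 to that of glands 133 and 392 was 8.53 for Txnrd1, 6.43 for Hmox1, 5.45 for Nfe2l3, 5.34 for Srxn1, 3.65 for Nfe2l2, 3.08 for Slc7a11, 2.09 for Gclc and Gclm, 1.57 for Nqo1 and 1.03 for Keap1. With 2 mice on each side, set apart here by marker sums and not by the study's labels, no test was made. The part of fat and epithelium in these differences was not tested.

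**Figure D3:**
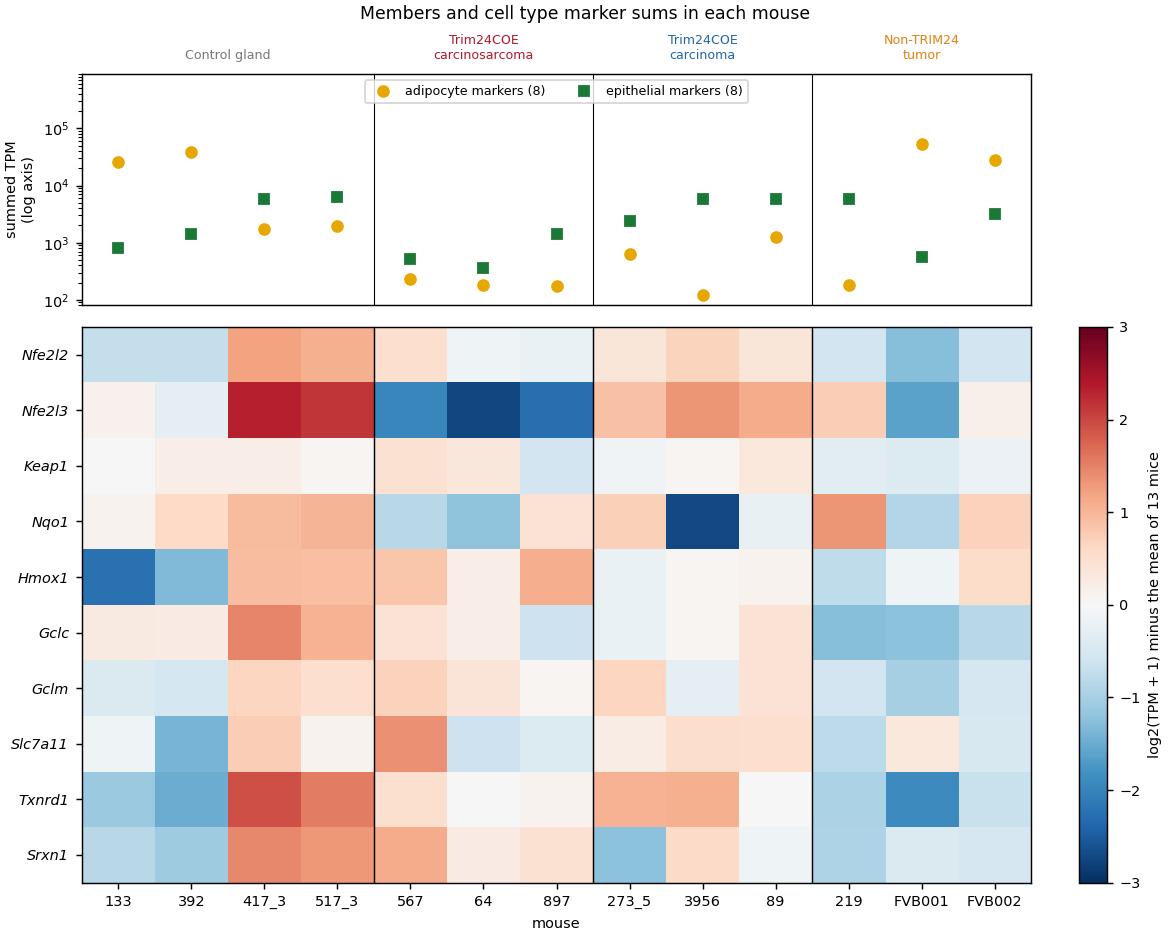
Summed TPM of 8 adipocyte and 8 epithelial markers in each of the 13 mice (top, log axis) above the members' log2(TPM + 1) minus their mean over the 13 mice (bottom, red higher and blue lower). Glands 417_3 and 517_3, with adipocyte sums of 1763 and 1953, are red for most members, and glands 133 and 392 are not. Nfe2l3 is bluest in the 3 carcinosarcomas and is also blue in non-TRIM24 tumor FVB001 (1.88 TPM).

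Counted together, 0 of the 10 members passed the test between Trim24COE tumors and glands, where 17.1% of 15196 genes did. An unadjusted limma p under 0.05 was found for 2 members and for 4953 of these genes. In carcinomas against glands 0 of 10 passed, where 3.5% of 15479 genes did. There, 0 members and 3328 of these genes had an unadjusted limma p under 0.05. Nfe2l3 was the 1 member that passed in carcinosarcomas against glands and against carcinomas. The median difference of the members was 0.01 for Trim24COE tumors, -0.03 for carcinosarcomas and 0.12 for carcinomas, each against glands, beside medians of -0.04, -0.12 and 0.02 over all genes tested. These comparisons share the 4 glands. Members not given above differed between Trim24COE tumors and glands by -0.04 to 0.44, with adjusted p from 0.558 to 0.974.

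**Figure D4:**
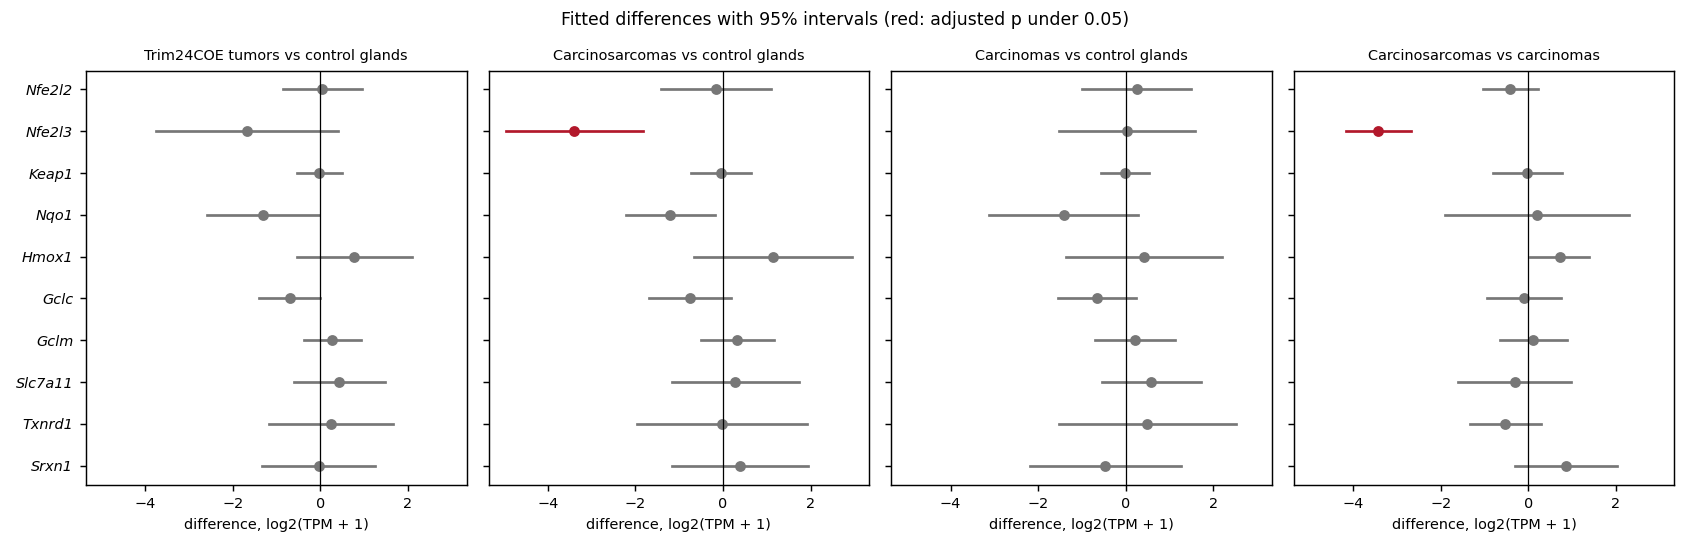
Fitted difference of each member in log2(TPM + 1), first group minus second, with its 95% interval, for the 4 comparisons within batch 1. Red marks the calls, which are Nfe2l3 in carcinosarcomas against glands (-3.39) and against carcinomas (-3.43), and most other intervals cross 0.

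Between non-TRIM24 tumors and glands 0 of 10 members passed the test. An unadjusted limma p under 0.05 was found for 1 member, Gclc, and for 3235 of the 16775 genes tested. Gclc was at 4.15, 4.31 and 6.03 TPM in tumors 219, FVB001 and FVB002, below every gland and every Trim24COE tumor, including the batch 2 repeats of gland 133 (13 TPM) and carcinoma 3956 (10.1 TPM). Against glands, Gclc differed by -1.70 (SE 0.37, interval -2.50 to -0.90, limma with a batch term, adjusted p = 0.0587), just outside the threshold, in a comparison with 0.709% of 16775 genes called, 0.203% higher and 0.507% lower. The median difference over all genes was -0.27 there, and that of the members -0.80. Nfe2l3 differed by -1.14 (interval -2.60 to 0.31, adjusted p = 0.360), and by -0.46 without FVB001. Against carcinomas 0 of 10 members and 0.0298% of genes passed, while 3 members and 2953 of 16775 genes had an unadjusted limma p under 0.05. For these 3 members carcinomas were higher, by 1.14 for Nfe2l2 (adjusted p = 0.264), 1.03 for Gclc (0.225) and 1.71 for Txnrd1 (0.281). Txnrd1 was at 13.3 to 32.9 TPM in non-TRIM24 tumors, a range that also holds glands 133 and 392 (24.0 and 18.3 TPM), and at 52.4 TPM or more in every Trim24COE tumor. The share of all genes that separate these groups, as Gclc and Txnrd1 do, was not counted. Over all genes the median difference from non-TRIM24 tumors was 0.27 in carcinomas and 0.13 in carcinosarcomas. Against carcinosarcomas 0 of 10 members and 4.76% of genes passed, 3.24% higher in carcinosarcomas and 1.52% lower. An unadjusted limma p under 0.05 was found there for 3 members and for 4088 of 16775 genes. For these members, carcinosarcomas had differences from non-TRIM24 tumors of -2.26 for Nfe2l3 (interval -3.83 to -0.69, adjusted p = 0.0876), 0.94 for Gclc (adjusted p = 0.169) and 0.98 for Gclm (adjusted p = 0.175). Differences larger than those of Gclc and Gclm, 1.44 for Srxn1 (limma, adjusted p = 0.207) and 1.20 for Txnrd1 (0.369), had wider intervals that held 0. Gclm was at 21.6 to 31.1 TPM in non-TRIM24 tumors, a range that also holds the repeat library of carcinoma 3956 (30.0 TPM).

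The 2 mice sequenced again show how far the members differed between libraries of the same mouse. Each repeat is of batch 2 and each first library of batch 1, so library and batch cannot be told apart. The repeat library gave 0.691 (Slc7a11) to 1.26 (Srxn1) times the first value for gland 133, and 0.825 (Nfe2l3) to 1.33 (Nqo1) times for carcinoma 3956. Between the 13 mice, the highest level was 134 times the lowest for Nfe2l3, 34.0 times for Nqo1, 15.4 times for Txnrd1, 10.7 times for Hmox1 and 2.10 times for Keap1.

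The wider pathway was described with 65 further genes in 7 lists. Calls of these genes rest on the main fits alone and were not rechecked under other settings or with a mouse left out. Between Trim24COE tumors and glands 61 were tested, 7 rose and 6 fell, where 7.96% of all genes tested rose and 9.13% fell. Of 11 thioredoxin and peroxiredoxin genes, 3 rose (Txn1, Prdx1 and Prdx2) and 2 fell (Txnip and Txnrd3). Txn1, thioredoxin, rose by 1.20 (adjusted p = 0.0131), from 271 ± 31.0 TPM in glands (SD, n = 4) to 651 ± 205 TPM in Trim24COE tumors (n = 6). Prdx1, a peroxide-reducing enzyme, rose by 1.16 (adjusted p = 0.00470), from 441 ± 85.7 to 987 ± 176 TPM. Txnip, which binds and inhibits thioredoxin, fell by 3.43 (adjusted p = 0.000410), with levels of 563 to 2379 TPM in glands and 82.9 to 168 TPM in the tumors. Txnrd3, a thioredoxin reductase related to Txnrd1, fell by 1.51 (adjusted p = 0.00692). Txn1 and Txnip thus changed in opposite directions, while Txnrd1 and Srxn1 of the same system did not pass.

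Among 19 detoxification and efflux genes, 15 were tested, 2 rose and 2 fell. Akr1b8, an aldo-keto reductase, rose by 2.25 in Trim24COE tumors (SE 0.33, adjusted p = 0.00174), with levels of 15.8 to 22.7 TPM in glands and 44.7 to 178 TPM in the tumors. It also passed in carcinosarcomas (2.71, adjusted p = 0.00127) and in carcinomas (1.78, adjusted p = 0.0252), and non-TRIM24 tumors had 43.4 to 105.7 TPM. Gstm1, a glutathione S-transferase, fell by 2.45 in Trim24COE tumors (adjusted p = 0.00546), from 162 ± 98.5 to 26.7 ± 11.7 TPM. Because Akr1b8 and Gstm1 have close relatives in the genome, their share of ambiguous reads is uncertain.

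In carcinosarcomas against glands 60 of the 65 were tested, 12 rose and 8 fell, beside 9.83% and 13.1% of all genes. Ugdh, which makes UDP-glucuronate, rose by 1.91 (adjusted p = 0.00328), and Txn1 rose by 1.55 (adjusted p = 0.00414). Ggt1, which breaks down extracellular glutathione, fell by 3.14 (adjusted p = 0.00905), Ephx1, an epoxide hydrolase, fell by 2.08 (adjusted p = 0.0157), and Txnip fell by 3.33 (adjusted p = 0.00351). In carcinomas, where 60 were tested, 1 rose (Akr1b8) and 3 fell, beside 1.58% and 1.92% of all genes, namely Txnip by 3.52 (adjusted p = 0.0168), Gstm1 by 2.95 (adjusted p = 0.0289) and Cbr1, a carbonyl reductase, by 1.19 (adjusted p = 0.0460). Between the tumor classes 0 of 59 passed in limma, where 0.113% of all genes were called higher in carcinosarcomas and 0.585% lower. Against glands, Trim24COE tumors had 1 of 10 glutathione genes lower (Ggt1), 1 of 10 NRF partner genes higher (Rbx1), 1 of 5 heme and iron genes higher (Ftl1), 1 of 4 superoxide and peroxide genes lower (Cat) and 0 of 6 NADPH supply genes called. Rbx1, Prdx2, Ftl1 and Cat fall outside the rule for naming genes and were added after their values were seen. In non-TRIM24 tumors 0 of 62 passed against glands and 0 of 62 against carcinomas, while against carcinosarcomas Ephx1 was higher and Ugdh lower in non-TRIM24 tumors.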

How the data were processed

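RNA-seq was analyzed in 15 libraries of 13 mice (total RNA, with an Illumina TrueSeq RNA kit per the authors' methods). The deposited values are TPM, which per the authors' methods were estimated with RSEM after alignment with STAR to GRCm38; the submitters' processing notes also name TopHat and Cufflinks. TPM keep no depth, so no interval for counting error is given. Groups came from the labels. The members, lists and tests were chosen with earlier results of these data known.

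Models were fitted over all genes with limma 3.58.1 in R 4.3.3 on log2(TPM + 1), with eBayes using a variance trend, and calls were made at a two-sided Benjamini-Hochberg adjusted p under 0.05. Genes entered with 1 TPM or more in a number of libraries equal to the mice of the smaller group. Comparisons within batch 1 used first libraries of the groups compared; for non-TRIM24 tumors, all 15 libraries were fitted with batch as a term, which rests on the 2 mice sequenced again, whose libraries were linked by duplicateCorrelation (0.951). Exact permutation tests used scipy 1.17.1 in Python 3.11.15. The fits were tested on simulated data. P-values measure the spread between mice.

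Pathway genes named are up to 3 per direction with the smallest adjusted p in each comparison within batch 1; likeness of pattern was taken for the 3 members of largest SD over the 10 mice of batch 1. Coordinates are from GENCODE M21, which holds 91.9% of the gene IDs. Alternatives changed the pseudocount (0.1), filter, scaling, samples fitted, batch term, link between repeats, an adipocyte marker covariate or left out each mouse. They were read for the 10 members and for the share of all genes called, not for single pathway genes.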

Additional observations from a re-analysis of the deposited data

Results flagged for a closer look

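Nfe2l3 differed between the tumor classes in its distance from the control glands: the difference between carcinosarcomas and carcinomas was -3.43 on the log2(TPM + 1) scale (limma, adjusted p = 0.0123; lost without carcinosarcoma 64 or 897 or carcinoma 89, at 0.106, 0.0600 and 0.0697, with no filter on low values, 0.0790, and with the adipocyte covariate, 0.161), with each of the 3 carcinosarcomas below each of the 4 glands and each of the 3 carcinomas within their range. None of the 20 sets of values formed by the 10 members in the control glands and in the Trim24COE tumors held a sample that stood apart by Dixon's criterion. That criterion looks for a single extreme sample, so it cannot flag the split of the glands into a high and a low pair. Nqo1 in carcinoma 3956 was the lowest of 6 tumors, at 0.87 TPM.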

How the results depend on the processing

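Nfe2l3 kept its direction in carcinosarcomas against glands and against carcinomas under every alternative run. Its call against carcinomas was lost, leaving 0 members called, with no filter on low values (adjusted p = 0.0790, more genes tested) and with the adipocyte covariate (0.161). Of all genes tested, 0 of 35695 were called with no filter and 0 of 14193 with the adipocyte covariate. Its call against glands held in all alternatives that kept every mouse, and 4 members were called with the adipocyte covariate, Nfe2l2 (-1.46, adjusted p = 0.0240), Gclc (-1.45, 0.0367) and Txnrd1 (-2.23, 0.00631) joining Nfe2l3, with 4999 of 15287 genes called in that fit. Adipocyte sums in glands (1763 to 38048) did not overlap with those in carcinosarcomas (172 to 231) or carcinomas (121 to 1276). Differences of these tumors from glands under this covariate therefore rest on extrapolation. With all 10 mice of batch 1 in the fit, 1 member was called between Trim24COE tumors and glands (Nfe2l3, 0.0457), with 20.4% of genes called. Gclc in non-TRIM24 tumors against glands made the count 1 with libraries scaled by median ratio (0.0371, 1.02% of genes called), with the adipocyte covariate (0.0467, 1.23%) and without the batch term (0.0220, 2.19%), and Nfe2l3 in carcinosarcomas against non-TRIM24 tumors made it 1 at a pseudocount of 0.1 (0.0476, 5.53%) and with the adipocyte covariate (0.0118, 2.94%). The causes were not tested.

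Some of the values printed changed sign. Under the adipocyte covariate Nfe2l2 (-0.79), Hmox1 (-0.67) and Keap1 (0.0048) did so between Trim24COE tumors and glands, and Nfe2l3 (-1.01) between carcinomas and glands. Under median-ratio scaling, Keap1 in Trim24COE tumors (0.047) and Nfe2l2 (0.0054) and Txnrd1 (0.14) in carcinosarcomas did so, each against glands. Over all 70 pairs of member and comparison, 84 of 870 recomputed values had the other sign, and 0 of these passed the threshold in either fit.

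With 1 mouse left out, the members called ranged from 0 to 2 for carcinosarcomas against glands, from 0 to 1 for carcinosarcomas against carcinomas, for non-TRIM24 tumors against glands (Gclc, called without gland 133 or 392) and for carcinosarcomas against non-TRIM24 tumors (Nfe2l3, called without FVB001), and stayed at 0 in the other 3 comparisons. The share of all genes called in these fits ranged from 8.14% to 20.9%, from 0% to 1.96%, from 0.0393% to 2.91% and from 0.219% to 4.71% in the 4 comparisons in that order. Differences that changed sign ranged from -0.26 to 0.37 for Nfe2l2 and from -0.10 to 0.10 for Keap1 in Trim24COE tumors, from -0.47 to 0.17 for Nfe2l2 and from -0.59 to 0.55 for Txnrd1 in carcinosarcomas, and from -0.42 to 0.45 for Nfe2l3 in carcinomas, each against glands. Where mouse 133 or 3956 was left out of fits with the batch term, the link between repeats was kept from the full data. No paired analysis was possible because no label pairs mice across groups. Unknown depth limits the reading of low values such as Nfe2l3 in carcinosarcomas.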
